A study of Mus musculus with 6 samples.

Results

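Schwann cells and the nerve fibers they wrap were followed in the mesenchyme of the mouse trachea through 7 genes: Mbp, Sox10, S100b, Ngfr, Gfra3, Cdh19 and Gria1. A probe set, the group of short probes on an array that reads the same transcript, was taken when the array annotation gave it 1 of these symbols and no other gene. This gave 20 probe sets of the 45037 tested, and 7 genes of 18193 that could be named. A gene was read from its brightest probe set over the 6 arrays, and the other probe sets are given beside it. The 6 samples were 3 controls and 3 taken 48 h post injury (hpi), all from adult male C57Bl/6 mice, with 4 animals pooled in each. Injury was inhalation of SO2 at 500 ppm for 4 h, a gas that kills the luminal cells of the airway lining. Controls carried no transgene or treatment that the labels name, and the trachea was the same tissue in both groups. The lining was peeled away with forceps after 23 min in dispase and everything left was lysed, so cartilage, muscle, vessels, fat, nerve and any lining cells left behind contribute to the RNA. In such bulk tissue fewer cells of a type and less RNA per cell cannot be told apart.

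Myelinating Schwann cells enclose single large axons in layers of compacted membrane, and Remak Schwann cells hold bundles of small unmyelinated axons. Both descend from the neural crest and depend on the transcription factor Sox10, which with other factors switches on the myelin genes. The airway wall is supplied by vagal and sympathetic fibers, and small ganglia lie along the back of the trachea. After nerve damage Schwann cells can lower their myelin genes and take on a repair state in which they make growth factors for axons. Several of the genes are not private to nerve: S100b is abundant in cartilage and is made by fat cells, and Ngfr is a surface marker of airway basal cells, the stem cells of the lining.

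Promoter sequence was at hand for S100b, which fell at 48 hpi on both of its probe sets, and for Ngfr, the member whose difference lay above 0. The 2 contrast in base composition. Each sequence is the 250 bases before the annotated start, read 5′ to 3′ on the gene's own strand from the RefSeq promoter table of mouse build GRCm38.p6, with CG dinucleotides in capitals. The S100b stretch is chr10:76253586-76253835 on the plus strand, and the Ngfr stretch is chr11:95587699-95587948 on the minus strand.
S100b promoter: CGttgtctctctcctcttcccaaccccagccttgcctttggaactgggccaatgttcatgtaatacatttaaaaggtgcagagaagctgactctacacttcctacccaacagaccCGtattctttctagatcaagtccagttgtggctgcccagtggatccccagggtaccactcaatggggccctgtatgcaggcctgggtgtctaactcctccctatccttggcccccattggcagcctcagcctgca
Ngfr promoter: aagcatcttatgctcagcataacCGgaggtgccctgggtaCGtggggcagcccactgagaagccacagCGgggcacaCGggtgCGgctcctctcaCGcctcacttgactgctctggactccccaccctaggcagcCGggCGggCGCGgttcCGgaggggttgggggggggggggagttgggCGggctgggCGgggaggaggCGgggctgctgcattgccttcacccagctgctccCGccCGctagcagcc
The S100b stretch was 53.6% G and C with 2 CG dinucleotides. The Ngfr stretch was 70.4% G and C with 16, against medians of 52.4% and 6 over all 32851 promoters in the table. The letters ACAAAG and ACAATG, forms of the sequence that Sox proteins recognize, were searched on both strands of the 300 bases around each start (the 250 printed and the next ones downstream). Neither gene held either of them there, whereas 18.7% of all promoters held ACAAAG, 12.6% held ACAATG and 28.6% held at least 1 of these. No match says only that these letters are not in this window.

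Expression is given below as log2 of the RMA level, the summary of its probes on an array, so a difference of 1 means a level 2 times as high, and differences are 48 hpi minus control. The level of a probe set depends on its probes, so levels are compared between samples and never between genes. A difference is called when its adjusted p in limma, over all probe sets, is below 0.05. Of the 7 genes, S100b and Gria1 fell, none rose, and the other 5 did not pass. Over all genes 1.24% fell and 4.97% rose by the same rule. At an unadjusted p below 0.05 the same fit took 4 of the 7 as lower and 1, Ngfr, as higher, beside 9.29% and 14.6% of all genes. In the direction of the difference 6 genes lay below 0 and 1 above, with a median of -0.37, beside a median of -0.01 over all genes. In 4 of the 7, Mbp, S100b, Cdh19 and Gria1, every sample at 48 hpi lay below every control, as was the case for 13.1% of all genes. In 1, Ngfr, every sample at 48 hpi lay above every control, as in 17.2% of all genes.

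Samples of the 2 groups that carry the same replicate number deviated from their group means together, so a fit with the number as a block is also given where it changes a call. With the block Mbp joined S100b and Gria1, making 3 of 7 genes that fell and still none that rose, where 4.64% of all genes fell and 8.77% rose. The split of falls and rises depends on the scaling of the arrays. RMA sets all arrays to the same distribution, and on that scale 904 genes rose and 226 fell. Scaled on 9 housekeeping genes the median of all genes shifted by -0.24, 694 rose and 3487 fell, and Mbp and Cdh19 passed beside S100b and Gria1. All values here are relative to the RMA scale. A value in parentheses after a gene is its log2 difference, and a further one is the adjusted p of the fit named.

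**Figure D1:**
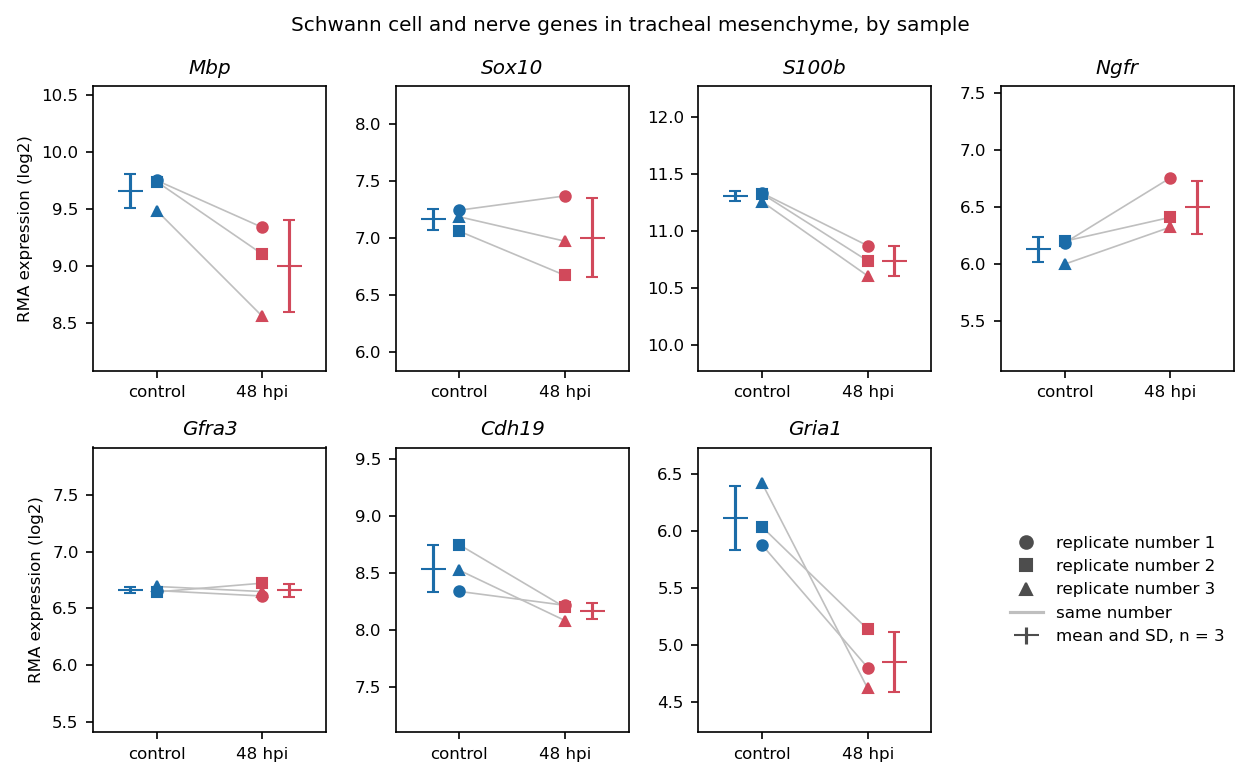
RMA expression (log2, vertical axis, with the same span in each panel) of the 7 genes in each of the 3 control and 3 48 hpi samples; symbols mark the replicate number, gray lines join samples of the same number, and bars give mean and SD (n = 3). In Mbp, S100b, Cdh19 and Gria1 the 3 samples at 48 hpi lie below the 3 controls, in Ngfr they lie above, and in Sox10 and Gfra3 the groups overlap.

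The array carries 8 probe sets for Mbp, which encodes myelin basic protein, the protein that holds the inner faces of the myelin membrane together. The brightest, 1433532_a_at, read 9.75, 9.74 and 9.49 in controls 1 to 3 and 9.34, 9.10 and 8.56 at 48 hpi. All samples at 48 hpi were below all controls, and the lowest was number 3, which was also the lowest control. The means were 9.66 ± 0.15 and 9.00 ± 0.40 (SD, n = 3), a difference of -0.66 ± 0.20 (SE) with an adjusted p of 0.127. Within the numbered pairs the differences were -0.41, -0.64 and -0.93. They share a sign, and with the block the adjusted p was 0.0178.

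The remaining 7 probe sets of Mbp did not all move alike. Those named 1456228_x_at, 1436201_x_at, 1454651_x_at and 1419646_a_at gave differences of -0.77 ± 0.25, -0.68 ± 0.22, -0.63 ± 0.19 and -0.48 ± 0.21 (SE), with adjusted p of 0.153, 0.157, 0.125 and 0.268. All 4 passed with the block, at adjusted p of 0.0277, 0.0312, 0.0139 and 0.0468. In the first 3 of them the samples at 48 hpi lay below the controls, and in 1419646_a_at 1 sample at 48 hpi lay inside the control range. The ending x marks probes that may also bind other transcripts, so these sets are not independent readings. The probe set 1425264_s_at differed by 0.19 ± 0.23 with overlapping groups. Both others, 1425263_a_at (0.06) and 1451961_a_at (-0.14), were dim in both groups, meaning a mean at or below 5.75. That bound is the 90th percentile of 45 probe sets of 31 genes not expected in trachea, such as sperm and retina genes. So 6 of the 8 lay below 0, 0 passed without the block and 5 passed with it.

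Sox10 is the transcription factor that Schwann cells need at every stage. Its brightest probe set, 1451689_a_at, read 7.25, 7.06 and 7.19 in controls and 7.37, 6.67 and 6.97 at 48 hpi. The highest and the lowest of all 6 values were both at 48 hpi. The difference was -0.16 ± 0.17 (SE) with an adjusted p of 0.666 and a 95% interval from -0.57 to 0.25, so a fall by about the amount seen in S100b lies at its edge. It came to 0.01 when 48 hpi replicate 2 was left out. A dimmer probe set, 1424985_a_at, read 6.22, 6.02 and 6.06 in controls and 5.90, 5.80 and 5.87 at 48 hpi. Its groups did not overlap, with a difference of -0.24 ± 0.09 and an adjusted p of 0.195 (0.118 with the block). The remaining one, 1425369_a_at, was dim in both groups and differed by 0.11 ± 0.17.

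Cdh19 encodes a cadherin, a cell adhesion protein, that marks Schwann cell precursors and later Schwann cells. It had 1 probe set, 1457373_at, which read 8.34, 8.75 and 8.53 in controls and 8.22, 8.20 and 8.08 at 48 hpi. The samples at 48 hpi lay close together and below the controls, with control 1 nearest to them. The difference was -0.37 ± 0.12 (SE), with an adjusted p of 0.148 and 0.0752 with the block, so Cdh19 passed in neither fit.

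S100b, a calcium-binding protein long used to stain Schwann cells, was measured by a pair of bright probe sets. The brighter, 1434342_at, read 11.34, 11.33 and 11.26 in controls and 10.87, 10.74 and 10.61 at 48 hpi. The controls lay within a narrow band and every sample at 48 hpi was clearly below it. The means were 11.31 ± 0.04 and 10.74 ± 0.13 (SD, n = 3), and S100b fell by 0.57 ± 0.10 (SE, adjusted p of 0.0228), which is 1.48-fold. The other, 1419383_at, read 10.42, 10.18 and 10.35 in controls and 9.87, 9.62 and 9.60 at 48 hpi. It fell by 0.62 ± 0.11 (adjusted p of 0.0285), again without overlap. The call rests on all 6 arrays: with any 1 of them left out the adjusted p ran from 0.0359 to 0.0921, and it stayed below 0.05 only without 48 hpi replicate 1.

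Cartilage genes moved in the direction of S100b. All 19 measured chondrocyte genes lay below 0, with a median of -0.60, and 4 fell: Chad (-0.74 ± 0.14, adjusted p of 0.0301), Col10a1 (-0.85 ± 0.17, 0.0368), Snorc (-0.67 ± 0.12, 0.0274) and Hapln1 (-0.68 ± 0.14, 0.0449), which encode proteins of cartilage matrix or of its cells. With the block 12 of the 19 fell. Their summed level, the sum of RMA values taken off the log scale, was 76917 to 85088 in controls and 52198 to 62872 at 48 hpi. The defining markers Col2a1 (-0.46) and Acan (-0.23), the main cartilage collagen and proteoglycan, did not pass. Of 9 fat cell genes measured 5 lay above 0 and 4 below. None passed in limma, 2 were higher and 0 lower at an unadjusted p below 0.05, and their sums overlapped (5904 to 7274 and 6406 to 8000). The adipocyte hormone Adipoq (0.38) and the lipid droplet protein Cidec (0.69) rose with the block (adjusted p of 0.0396 and 0.0488), while the lipase Lpl differed by -0.41 and passed in neither fit. The part of cartilage in the S100b result was not tested.

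Ngfr encodes the neurotrophin receptor that all neurotrophins bind with low affinity and that Schwann cells without axon contact raise. Its probe set 1454903_at read 6.19, 6.20 and 6.00 in controls and 6.76, 6.41 and 6.32 at 48 hpi. Every sample at 48 hpi was above every control, number 1 the most. The difference was 0.37 ± 0.13 (SE) with an adjusted p of 0.190 and 0.0638 with the block, so it passed in neither fit. The other probe sets of Ngfr, 1421241_at (-0.07) and 1450177_at (0.18), were dim in both groups.

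Basal cell genes are given beside Ngfr because basal cells also carry it. The keratins Krt5 (0.18) and Krt14 (0.41), which define basal cells, were above 0 without passing, and Trp63 (-0.33), their transcription factor, was below 0 and dim in both groups. The summed level of 14 lining genes was 11991 to 21436 in controls and 2369 to 12278 at 48 hpi. Scgb1a1, the secretory protein of club cells, made up 46.9% to 54.9% of it in controls and 17.9% to 41.4% at 48 hpi, with a difference of -2.57 ± 0.82 (SE, adjusted p of 0.146). None of the 14 passed in limma, with 1 higher and 2 lower at an unadjusted p below 0.05, and 2 fell with the block. The samples numbered 1 had the highest sum of their group in both groups, and number 1 at 48 hpi was also the highest in Ngfr. Among controls the order differed: Ngfr was highest in number 2 (6.20), which had the lowest sum (11991), and read 6.19 in number 1. The part of basal cells in the Ngfr values was not tested.

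Gfra3 encodes the receptor subunit for artemin, which signals through the kinase Ret in sympathetic and sensory nerve and is also found in Schwann cells. Its probe set 1418880_at read 6.66, 6.64 and 6.69 in controls and 6.61, 6.72 and 6.65 at 48 hpi. The groups overlapped throughout. The difference was -0.00 ± 0.08 (SE; adjusted p of 0.983), with a 95% interval from -0.19 to 0.18 that leaves out a change of the size seen in S100b. Its sign turned to 0.03 when arrays were scaled on the median of all probe sets.

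Gria1 encodes a subunit of the AMPA receptor, the channel that carries fast signals of glutamate, and is best known from neurons. Its probe set 1448972_at read 5.88, 6.04 and 6.42 in controls and 4.80, 5.14 and 4.62 at 48 hpi. The other, 1435239_at, read 5.83, 5.92 and 6.09 in controls and 4.42, 4.67 and 4.44 at 48 hpi. In both probe sets the groups stood well apart. Gria1 fell by 1.26 ± 0.18 (SE, adjusted p of 0.0135) on the former and by 1.44 ± 0.11 (adjusted p of 0.00110) on the latter. Both means at 48 hpi lay under the bound for dim probe sets, so these fitted sizes are poorly fixed. Against the bound itself the controls were at least 1.28-fold and 1.14-fold higher. The former passed in 5 of the 6 fits that left out 1 sample each and reached an adjusted p of 0.0634 without 48 hpi replicate 3.

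**Figure D2:**
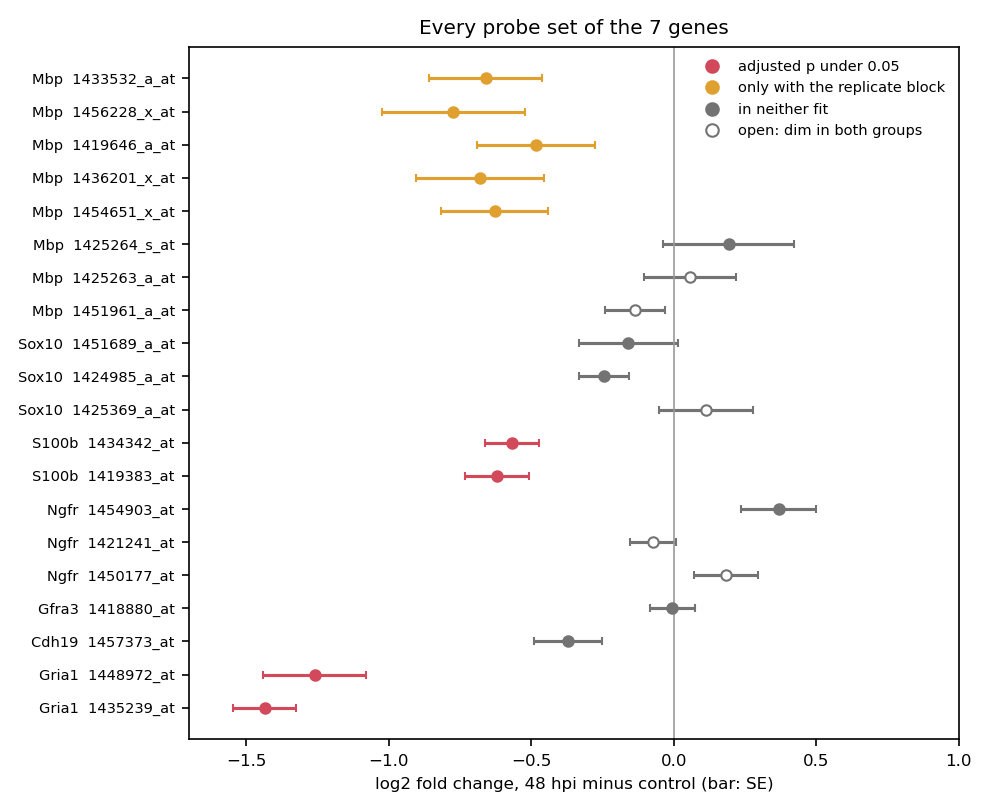
The log2 fold change (48 hpi minus control, horizontal axis) of each of the 20 probe sets of the 7 genes with its SE; red marks an adjusted p below 0.05, yellow a pass with the replicate block alone, gray neither, and open symbols a probe set dim in both groups. The 4 red points are those of S100b and Gria1, and the 5 yellow points are all of Mbp.

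Over the 20 probe sets, 4 fell, where 0.846% of all probe sets did. In 10 the samples at 48 hpi lay below the controls, as in 12.1% of all probe sets, and 5 were dim in both groups.

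Across 8 lists of related genes, 109 of 125 were measured, each counted once and without the 7 themselves. Of these 2 rose (Gap43 and Cdh5) and 2 fell (Ncmap and Sox6), and the median difference was -0.09. That is 1.83% in each direction, beside the 4.97% of all genes that rose and the 1.24% that fell. With the block 5 rose (4.59%) and 11 fell (10.1%), beside 8.77% and 4.64% of all genes.

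Of 34 measured Schwann cell and myelin genes, 22 lay below 0, with a median of -0.14. In 10 (29.4%) every sample at 48 hpi was below every control, as in 13.1% of all genes. At an unadjusted p below 0.05, 10 were lower and 1 higher, beside 9.29% and 14.6% of all genes. Ncmap, a protein of the noncompact myelin of peripheral nerve, fell: it read 9.83, 10.11 and 10.00 in controls and 9.43, 9.52 and 9.15 at 48 hpi, without overlap (-0.62 ± 0.13, adjusted p of 0.0434). With the block 6 fell, Ncmap among them, with Kcna1 (-0.72), a potassium channel beside the node of Ranvier, Adgrg6 (-0.68), the adhesion receptor that starts myelination, Aspa (-0.61), Art3 (-0.48) and Fabp7 (-0.40). Their adjusted p with the block were 0.0182, 0.0315, 0.0103, 0.0220, 0.0408 and 0.0361. Further genes of the list did not pass in either fit on their brightest probe set, such as Pmp22 (-0.34), Cnp (-0.31) and Drp2 (-0.35). On a dimmer probe set, 1 of 3 for Drp2, 1 of 4 for Kcna1 and 1 of 2 for Adgrg6 passed as lower without the block. In the other direction 1 of 3 for Nfasc (0.31 on its brightest) passed as higher. Egr2, the master regulator of myelination, differed by 0.72 with controls far apart (8.34, 6.77 and 5.98). Of the 12 genes above 0, Gfap (0.38), a filament protein of nonmyelinating Schwann cells, and the integrin Itgb8 (0.38) had every sample at 48 hpi above every control, and neither passed in either fit. The summed level of the list was 9194 to 9934 in controls and 7078 to 8307 at 48 hpi, with no overlap. At 48 hpi number 3 was the lowest, as in Mbp.

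Among 12 measured genes of repair Schwann cells, Gap43 rose. Gap43 is the growth-cone protein of regrowing axons, which Schwann cells without axons also make. It read 5.41, 6.15 and 5.38 in controls and 6.88, 7.20 and 6.66 at 48 hpi. The groups did not overlap, and the difference was 1.27 ± 0.23 (SE, adjusted p of 0.0314) from a control mean under the dim bound. With the block the cytokine Lif (0.70, 0.0200) and the axon growth factor Gdnf (0.53, 0.0265, dim in both groups) rose as well. Jun, the transcription factor that drives the repair state, fell with the block (-0.51, 0.0226). Its groups overlapped, and its adjusted p without the block was 0.393. Igfbp2 (0.97) did not overlap, higher at 48 hpi, and passed in neither fit. At an unadjusted p below 0.05, 4 of the 12 were higher and 0 lower, beside 14.6% and 9.29% of all genes. In 4 every sample at 48 hpi was above every control, as in 17.2% of all genes. Shh and Olig1, which mark that state, were dim in both groups. The median of this list was 0.10.

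None of 11 measured neurotrophins and receptor partners passed in limma, and at an unadjusted p below 0.05 0 were higher and 2 lower. In 5 of them (45.5%, beside 13.1% of all genes) the samples at 48 hpi lay below the controls, and the median was -0.16. Bex3 (0.06) and Maged1 (-0.16), which bind the Ngfr protein inside the cell, are named as the brightest probe sets of the list. Ntrk2, the receptor for brain-derived neurotrophic factor, came closest, at -0.45 ± 0.11 with an adjusted p of 0.0746.

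None of 10 genes of the GDNF family and its receptors, where Gfra3 belongs, passed in limma without the block, while 2 were higher and 0 lower at an unadjusted p below 0.05. Sdc3 (0.30) and Ncam1 (-0.14), cell surface partners for these ligands, are named as the brightest probe sets of the list. Ret differed by -0.02, and the artemin gene Artn was dim in both groups. Of the 7 neuregulin and ErbB genes, which carry the axonal signal for myelination, none passed in limma and 0 had an unadjusted p below 0.05 in either direction. Erbb3, the receptor on Schwann cells, differed by -0.17 and its partner Erbb2 by -0.12.

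None of the 17 genes of AMPA receptor subunits and partners passed in limma beside Gria1, while 1 was higher and 4 were lower at an unadjusted p below 0.05. In 7 of the 17 (41.2%, beside 13.1% of all genes) the samples at 48 hpi lay below the controls. The median was -0.12, and 9 were dim in both groups. The sister subunits Gria2 (-0.24) and Gria4 (-0.23) were dim, and Gria3 differed by -0.03. The scaffold Dlg1 (-0.21) and the vesicle fusion factor Nsf (0.47) are named as the brightest probe sets of the list, and Nsf rose with the block (0.0252). A dimmer probe set of Nsf, 1 of 4, passed as higher without the block.

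Among 14 genes of SoxE factors and Sox10 targets, Sox6 fell. It read 8.63, 8.71 and 8.66 in controls and 7.98, 8.16 and 7.67 at 48 hpi, a difference of -0.73 ± 0.13 (SE, adjusted p of 0.0291), and 3 of its 4 probe sets passed. With the block its partner Sox5 (-0.64, 0.0238) and the SoxE factor Sox9 (-0.55, 0.0292) fell too. A dimmer probe set of Sox5, 1 of 7, passed as lower without the block. Sox5, Sox6 and Sox9 work together in cartilage, and Sox9 was also among the chondrocyte genes above. Of 15 classical cadherins other than Cdh19, Cdh5, the cadherin of blood vessels, rose (0.71 ± 0.14, adjusted p of 0.0353) and Cdh4 fell with the block (-0.59, 0.0157), while 11 were dim in both groups.

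**Figure D3:**
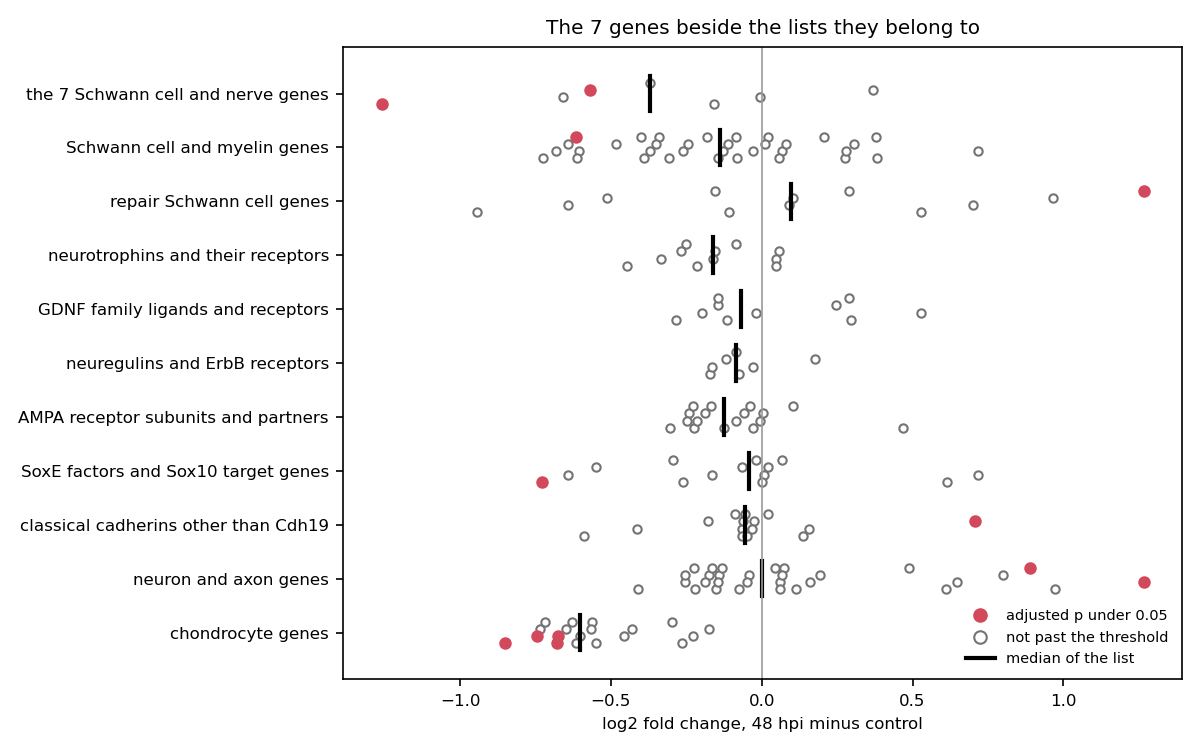
The log2 fold change (48 hpi minus control, horizontal axis) of each measured gene of the 7 genes, of the 8 related lists and of the neuron and chondrocyte markers; red marks an adjusted p below 0.05 and black bars the median of a list. The median of the 7 genes (-0.37) lies between that of the Schwann cell and myelin list (-0.14) and that of the chondrocyte list (-0.60).

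Of the neuron and axon markers none fell in limma, with 1 lower and 6 higher at an unadjusted p below 0.05. Of all genes 9.29% were lower and 14.6% higher at that unadjusted p, and 4.97% rose at the adjusted one. Of 30 measured, 15 lay above 0 and 15 below, 20 were dim in both groups, and the summed level was 1113 to 1516 in controls and 1481 to 1735 at 48 hpi. Gap43 and Vip (0.89 ± 0.16, adjusted p of 0.0311, dim in both groups), a peptide of parasympathetic fibers, rose. With the block Stmn2 (0.65, 0.0264), a protein of growing axons, and Tac1 (0.61, 0.0450, dim in both groups), the gene for substance P, rose as well. A dimmer probe set of Syt4, 1 of 2, passed as higher without the block, while its brightest (0.97, dim in both groups) did not pass. The defining markers Tubb3 (0.80 ± 0.30, adjusted p of 0.209), with a control mean under the dim bound, and Uchl1 (0.49 ± 0.23, 0.313) did not pass. The 1 lower gene at the unadjusted p was Syt1 (-0.41 ± 0.13, adjusted p of 0.147). Its samples at 48 hpi all lay below the controls, and it passed in neither fit. Also among the 15 below 0 were Snap25 (-0.15), Nefl (-0.23) and Nefm (-0.19), the last 2 dim in both groups.

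Of the cells that wrap and fill the nerve, 8 perineurial and endoneurial genes were measured and none passed in limma, with 1 higher and 3 lower at an unadjusted p below 0.05. Their summed level was 3056 to 3693 in controls and 2483 to 2794 at 48 hpi, without overlap. This sum includes Sox9 (-0.55), which is also on the chondrocyte list, and its part in the lower sum was not tested. The perineurial glucose transporter Slc2a1 (-0.34, 0.0485), the netrin Ntn4 (-0.52, 0.0135) and Sox9 fell with the block, Osr2 (0.53, 0.0326), dim in both groups, rose with it, and Itgb4 (0.34) did not pass.

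**Figure D4:**
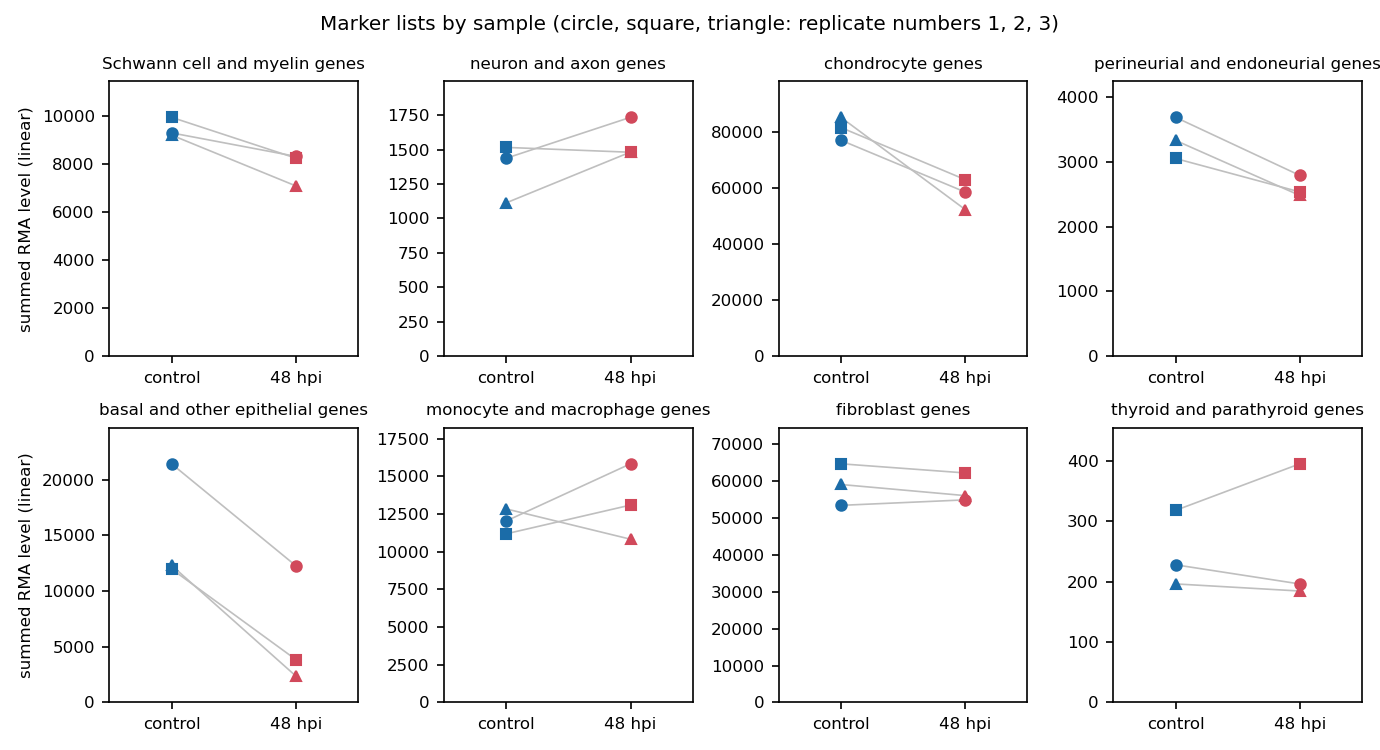
Summed RMA level (linear scale from 0, vertical axis) of 8 marker lists in each control and 48 hpi sample; symbols mark the replicate number and lines join samples of the same number. Schwann cell, chondrocyte and perineurial sums are lower in all samples at 48 hpi than in all controls, and the other 5 lists shown overlap. Of the lists not shown, the neurotrophin, SoxE and melanocyte sums were also lower at 48 hpi without overlap. Sox9 is counted in both the chondrocyte and the perineurial sum.

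Markers of melanocytes, which need Sox10, and of oligodendrocytes, which make Mbp, were mostly dim, unlike those of cartilage and fat given above. The melanocyte enzymes Tyr and Tyrp1 and the oligodendrocyte myelin genes Mog and Mobp were dim in both groups, as were 6 of 7 melanocyte genes and 7 of 9 genes of oligodendrocytes and astrocytes, and none of either list passed in limma without the block. At an unadjusted p below 0.05, 1 melanocyte gene was lower and 1 gene of the other list was higher. The melanocyte sum was 253 to 319 in controls and 216 to 245 at 48 hpi, without overlap though most of its genes were dim. The sum of the other list overlapped (324 to 414 and 330 to 447). Of 12 monocyte and macrophage genes 9 rose, among them Cd68 (2.28 ± 0.10) and Itgam (2.88 ± 0.17). Their summed level overlapped between groups (11192 to 12846 and 10834 to 15840), with lysozyme, Lyz2 (-0.43), making up 78.3% to 81.1% of it in controls. Without Lyz2 the sum was 2111 to 2619 in controls and 5158 to 6193 at 48 hpi, without overlap. Of 11 fibroblast genes 2 fell, Scara5 (-1.02) and Dpt (-0.53), while Pdgfra differed by 0.00 and Col1a1 by 0.51. Of 8 endothelial genes Tie1 (0.65) and Cdh5 rose, and Pecam1 differed by 0.53. Of 8 smooth muscle and 10 skeletal muscle genes none passed in limma nor had an unadjusted p below 0.05. The defining markers of smooth muscle, Acta2 and Myh11, differed by 0.17 and -0.02, and those of skeletal muscle, Acta1 (dim in both groups) and Ckm, by 0.11 and 0.30. Fibroblast sums were 53411 to 64678 in controls and 54898 to 62200 at 48 hpi. Thyroglobulin, a thyroid protein, was bright in both samples numbered 2 (7.23 and 7.83) and between 4.58 and 5.26 in the others, and Tshr, the receptor for thyrotropin, was dim in both groups. None of 6 thyroid and parathyroid genes passed in limma or had an unadjusted p below 0.05.

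Each gene was also set against its own mean over the 6 arrays. The median of these deviations over the 7 genes was 0.16, 0.31 and 0.16 in controls and -0.05, -0.23 and -0.27 at 48 hpi. By this median number 1 at 48 hpi lay closest to the controls, as it did in Mbp (0.01), S100b (-0.15) and Cdh19 (-0.13). Other genes differed. Sox10 (0.29) and Ngfr (0.44) were at their highest there, above all controls, and Ngfr was farthest from them. Gria1 was lower in number 1 (-0.68) than in number 2 (-0.35). Number 3 had the lowest Mbp (-0.77), S100b (-0.42), Cdh19 (-0.27) and Gria1 (-0.86).

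Genes of the most similar profile were sought for each member as the smallest root mean square difference of values centred on their own mean over the 6 arrays. For S100b they were Ctdspl (0.0345) and Ptch1 (0.0375), which both fell (-0.53, adjusted p of 0.0396, and -0.52, 0.0285). Ptch1 is the receptor for hedgehog proteins. For Gria1 they were Itih5 (0.180) and Lmcd1 (0.203), at a larger distance, and both fell (-0.97, 0.0251, and -0.87, 0.0383). For Mbp they were Mdfi (0.0638) and Fbln1 (0.0672), for Sox10 Rnf128 (0.0625) and Slc33a1 (0.0628), for Cdh19 Rsad1 (0.0454) and Trim23 (0.0459), for Ngfr Antkmt (0.0320) and Stard5 (0.0366), and for Gfra3 Fam149b (0.0172) and Sh2b1 (0.0177). No gene of the nerve lists was among them. A small difference over 6 arrays is a description of these values, and among 18193 genes close matches are easily found.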

How the data were processed

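RNA of 6 pooled samples of tracheal mesenchyme was amplified by the authors and hybridized to 1 Affymetrix mouse array each. The deposited table holds log2 expression made by RMA (robust multi-array analysis). Tools listed in the submitters' processing notes are Affymetrix Expression Console 1.1, Partek 6.5 and RMA. RMA corrects background, equalizes the distributions of the arrays and compresses differences of dim probe sets toward 0; it also hides a change shared by most genes. The number of arrays limits the precision, and the samples are separate pools, so p-values measure the spread between pools.

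Of 45101 rows, 64 control probe sets were left out. Symbols came from the platform annotation, 1 symbol for 34945 probe sets, several for 932 and none for 9160, and 34741 were updated through Entrez identifiers to a RefSeq table (GRCm38.p6). Groups came from the sample titles. Differences were tested with limma 3.58.1 in R 4.3.3 (lmFit and eBayes, two-sided, group as factor, 4 residual degrees of freedom plus 3.21 from the shared spread), with Benjamini-Hochberg adjustment over 45037 probe sets. Errors of differences are SE of the fit. Residuals of samples with the same number correlated at 0.62, 0.36 and 0.34 over probe sets; the labels do not say what a number shares, and the block leaves 2 residual degrees of freedom.

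Text names the 7 genes with all probe sets, pathway list genes past the threshold (at most 4 per list) or else the 2 brightest, the first 2 genes of each marker list where measured, and the 2 nearest profiles per gene. Other list genes named were chosen after their values were seen. The 7 genes and all lists were chosen with earlier results of these data known. Promoters are printed for 2 of the 7 genes. The selection left out a chromosome, so this is not a count of all that were available. Alternatives covered the block, samples left out, probe set choice, dim probe sets, moderation and scaling.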

Additional observations from a re-analysis of the deposited data

How the results depend on the processing

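With any 1 sample left out, 0 to 2 of the 7 genes fell (2 with all), 0 to 1 list genes fell (2 with all) and 0 to 3 rose (2 with all); none of the 7 fell without 48 hpi replicate 3. Over all genes 17 to 98 fell in these fits (226 with all) and 349 to 647 rose (904 with all). The lowest counts, 17 and 349, were also without 48 hpi replicate 3. The loss of calls was therefore not confined to these genes. The replicate block, which pairs samples by number, raised the falling list genes to 11 and the rising ones to 5, and changed no call of the 7 genes other than that of Mbp. Without both samples numbered 1, 1 of the 7 genes fell, and 0 list genes fell or rose. Leaving out dim probe sets left 1 of the 7, since Gria1 was not tested then, and 4 falling list genes; the probe set of largest variance gave 4 as well, and averaging probe sets gave 1 rising list gene. The equal-variance test called 17 falling and 5 rising list genes unadjusted, and after adjustment 0 of the 7, 0 falling and 0 rising. After that adjustment 4 genes of the whole series fell and 41 rose. Scaling on housekeeping genes gave 4 of the 7 and 36 falling list genes; scaling on the median of all probe sets gave 1 falling list gene. With a sample left out, the difference of Sox10 ran from -0.341 to 0.00739 (without 48 hpi replicate 2) and that of Gfra3 from -0.0361 to 0.0204; Gfra3 also turned to 0.0164 without both samples numbered 1 and to 0.0256 under median scaling. Beyond what their construction shows, the cause was not tested. The directions of Mbp, S100b, Cdh19, Ngfr and Gria1 held under all alternatives run. Called genes were 80% higher in the fit as reported, 65.4% with the block, 16.6% under housekeeping scaling and 86.3% under median scaling.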
